A study of Mus musculus with 18 samples.

Results

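p53 and 9 genes known as its transcriptional targets were followed in NIH-3T3 mouse fibroblasts exposed to the proteasome inhibitor carfilzomib (CFZ). The 10 members, Trp53, Mdm2, Ccng1, Phlda3, Trp53inp1, Sesn1, Zmat3, Plk2, Eda2r and Perp, were taken by gene symbol from a table of 23420 symbols, and all 10 were found. NIH-3T3 is an immortalized line of mouse fibroblasts. The wild-type (WT) line and a line in which Nrf1 had been knocked out with CRISPR/Cas9 (Nrf1-KO) were each treated with DMSO, with 200 nM CFZ for 6 h or with 200 nM CFZ for 24 h, and RNA from 3 biological replicates in each of these 6 groups was sequenced. A time for DMSO is not given, all groups share the parent line, and the sources used here do not say whether the Nrf1-KO line is 1 clone, so that genotype and clone cannot be told apart.

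p53 is a transcription factor whose protein is normally kept low by Mdm2, a ubiquitin ligase that hands p53 to the proteasome. When p53 escapes this turnover it binds a bipartite DNA element and activates genes for cell-cycle arrest, DNA repair, antioxidant defence and death, Mdm2 itself among them, which closes a feedback loop. Proteasome inhibition blocks the last step of this turnover, so the transcripts of p53 targets are a common readout of what p53 does in treated cells. RNA was measured here and protein was not. NIH-3T3 cells are known to have lost the Cdkn2a locus, which encodes the Mdm2 antagonist p19Arf, and Cdkn2a had 0 counts in all 18 libraries (3 counts, the limit that a count of 0 allows, correspond to 0.36 CPM in the shallowest library and 0.125 CPM in the deepest).

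Total counts per library ranged from 8333148 to 23917081. Of the 10 members, 9 passed the filter on low counts, and their counts ran from 380 to 10375 in a library, so that counting error was small for each of them. Perp, which encodes a p53-induced tetraspan membrane protein of epithelia, had 2 counts in all, 1 in a Nrf1-KO DMSO library and 1 in a Nrf1-KO 24 h library, and was not tested. Nfe2l1, the gene that the study calls Nrf1, stood at 447.6 ± 9.87 CPM in WT DMSO and 180.1 ± 5.27 in Nrf1-KO DMSO (SD, n = 3). In the Nrf1-KO line it was at 418.8 ± 7.19 CPM at 6 h and 204.4 ± 4.45 at 24 h, below the WT line in every treatment. The fibroblast markers Col1a1, Col1a2, Col3a1, Vim, Thy1, Pdgfrb and S100a4 were all detected, and Epcam (epithelium) had no count in any library. Cdh1, the other epithelial marker, ran from 5.905 to 6.364 CPM in WT DMSO, from 10.82 to 13.03 in Nrf1-KO DMSO and below 1 at 24 h in both lines. Ptprc, a leukocyte marker, had 0 counts in all 9 WT libraries and 6 to 26 in every Nrf1-KO library. The summed leukocyte markers Ptprc and Cd68 ran from 0.4564 to 0.9281 CPM in WT DMSO and from 2.745 to 3.777 at 24 h, and in the Nrf1-KO line from 1.642 to 1.973 and from 5.563 to 5.772. Mean Cd68 went from 0.6977 CPM in DMSO to 3.207 at 24 h in the WT line and from 0.7762 to 4.478 in the Nrf1-KO line. Ptprc did not follow it, with means of 0.9814 CPM in Nrf1-KO DMSO and 1.223 at 24 h. The summed endothelial markers Pecam1 and Cdh5 ran from 0.2952 to 0.591 CPM in the DMSO libraries of both lines and from 2.541 to 3.828 at 24 h. Mean Cdh5 went from 0.2264 CPM in DMSO to 2.955 at 24 h in the WT line and from 0.1814 to 3.402 in the Nrf1-KO line. Pecam1 did not rise with it, with means of 0.1567 and 0.08843 CPM in the WT line and 0.2926 and 0.1001 in the Nrf1-KO line. The summed level of the 7 fibroblast markers ran from 26510 to 28070 CPM in WT DMSO and from 4447 to 4480 at 24 h of CFZ, and in the Nrf1-KO line from 21020 to 25110 and from 6942 to 7688. All 7 were called lower in WT cells at 24 h and 6 in Nrf1-KO cells, where 40.5% and 41.1% of all genes tested were called lower. Vim did not fall in the Nrf1-KO line, at 3398 ± 162 CPM in DMSO and 3451 ± 48.3 at 24 h (SD, n = 3). The part of these shifts in the values below was not tested, and in bulk RNA fewer cells of a type and less RNA per cell cannot be told apart.

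Levels are given in CPM, the counts brought to a common library total with edgeR's TMM scaling, and log2 fold changes come from edgeR's quasi-likelihood test in 1 model of the 6 groups, with Benjamini-Hochberg adjustment over the 11762 genes tested. Errors of log2 fold changes are standard errors (SE). A gene is called changed at an adjusted p-value under 0.05. Because most genes passed that threshold in the comparisons of CFZ with DMSO, a stricter rule that also asks for a change of at least 2-fold is given beside it.

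No exonic base of the 10 members overlaps an exon of another gene in the GENCODE M21 annotation of GRCm38. No stretch of their transcripts as long as a read occurs exactly in another gene's transcripts. Stretches with mismatches, such as a pseudogene can hold, were not compared. The upstream sequence of members that rose and of 1 member that fell is shown because p53 acts through DNA elements near its targets. RefSeq windows of 300 bases around the annotated start (build GRCm38.p6) were at hand for 7 members, in 8 windows since Sesn1 has 2 starts. Trp53inp1, Zmat3 and Perp had no entry. The windows were searched for the p53 half-site consensus of 10 bases, which reads the same on both strands. Capitals mark the matching bases.
Mdm2, the ligase that limits p53 (chr10:117710709-117711008, minus strand): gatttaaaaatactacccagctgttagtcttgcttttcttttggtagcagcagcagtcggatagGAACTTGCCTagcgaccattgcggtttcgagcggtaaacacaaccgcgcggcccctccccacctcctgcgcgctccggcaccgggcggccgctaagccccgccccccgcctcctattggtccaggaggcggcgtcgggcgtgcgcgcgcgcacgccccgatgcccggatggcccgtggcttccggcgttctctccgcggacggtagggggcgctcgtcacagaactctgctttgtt
Ccng1, cyclin G1 (chr11:40755237-40755536, minus strand): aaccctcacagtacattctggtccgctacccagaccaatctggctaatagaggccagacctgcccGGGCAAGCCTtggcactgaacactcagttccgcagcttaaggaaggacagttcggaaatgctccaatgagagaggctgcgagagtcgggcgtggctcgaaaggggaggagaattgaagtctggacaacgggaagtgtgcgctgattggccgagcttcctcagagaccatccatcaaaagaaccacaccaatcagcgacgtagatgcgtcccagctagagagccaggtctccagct
Eda2r, a TNF receptor family member (chrX:97377160-97377459, minus strand): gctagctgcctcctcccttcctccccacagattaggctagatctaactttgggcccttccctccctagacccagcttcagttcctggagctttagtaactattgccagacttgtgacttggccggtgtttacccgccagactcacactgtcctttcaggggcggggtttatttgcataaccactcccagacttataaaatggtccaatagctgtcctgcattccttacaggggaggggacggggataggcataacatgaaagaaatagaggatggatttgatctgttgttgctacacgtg
Sesn1, sestrin 1, the downstream one of its 2 starts (chr10:41887189-41887488, plus strand): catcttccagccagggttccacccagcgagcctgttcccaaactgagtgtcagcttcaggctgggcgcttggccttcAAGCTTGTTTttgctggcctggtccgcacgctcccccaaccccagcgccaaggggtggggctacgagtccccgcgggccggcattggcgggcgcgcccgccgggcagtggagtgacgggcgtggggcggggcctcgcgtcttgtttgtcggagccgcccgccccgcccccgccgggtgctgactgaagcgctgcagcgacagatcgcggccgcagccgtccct
A match was present in the windows of Trp53, Mdm2 and Ccng1 and in the downstream window of Sesn1. The match began 186 bases before the start in Mdm2, 185 in Ccng1, 173 in Sesn1 and 75 in Trp53. The windows of Phlda3, Plk2 and Eda2r and the upstream window of Sesn1 held none. Over all 32851 RefSeq windows, 8.36% held at least 1 half-site match and 0.0731% held a pair of half-sites at most 13 bases apart, which no member's window did. The element through which p53 is known to act on Mdm2 lies in the first intron, outside this window.

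The p53 transcript itself rose under CFZ in both lines, and no difference in this response between the lines was detected. Trp53, on chromosome 11 of GRCm38 from 69580359 to 69591873, stood at 150.4, 160.1 and 147.2 CPM in the WT DMSO libraries, at 251.8, 249.3 and 257 at 6 h and at 270.6, 281.8 and 289.6 at 24 h. In the Nrf1-KO line it stood at 138.4, 141.9 and 128.1 CPM in DMSO, at 222.6, 233.4 and 232.9 at 6 h and at 252.3, 243.8 and 249.1 at 24 h. Every CFZ library lay above every DMSO library of either line. The log2 fold change was 0.73 at 6 h (SE 0.0388, adjusted p = 5.05e-17) and 0.88 at 24 h (SE 0.0385, adjusted p = 8.61e-20) in the WT line, and 0.76 (adjusted p = 4.47e-17) and 0.87 (adjusted p = 1.1e-19) in the Nrf1-KO line. The difference in response between the lines was 0.03 at 6 h (SE 0.0554, adjusted p = 0.71) and -0.01 at 24 h (SE 0.0545, adjusted p = 0.891), and its sign changed when single libraries were left out. The level of Trp53 was lower in the Nrf1-KO line throughout, with log2 differences of -0.17 in DMSO, -0.14 at 6 h and -0.18 at 24 h, at adjusted p-values of 0.000563, 0.0026 and 9.03e-05. At 6 h that difference did not pass the threshold with library size alone as the scaling (-0.07, adjusted p = 0.11). In the order of group means, only the Nrf1-KO 24 h and WT 6 h libraries overlapped.

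**Figure D1:**
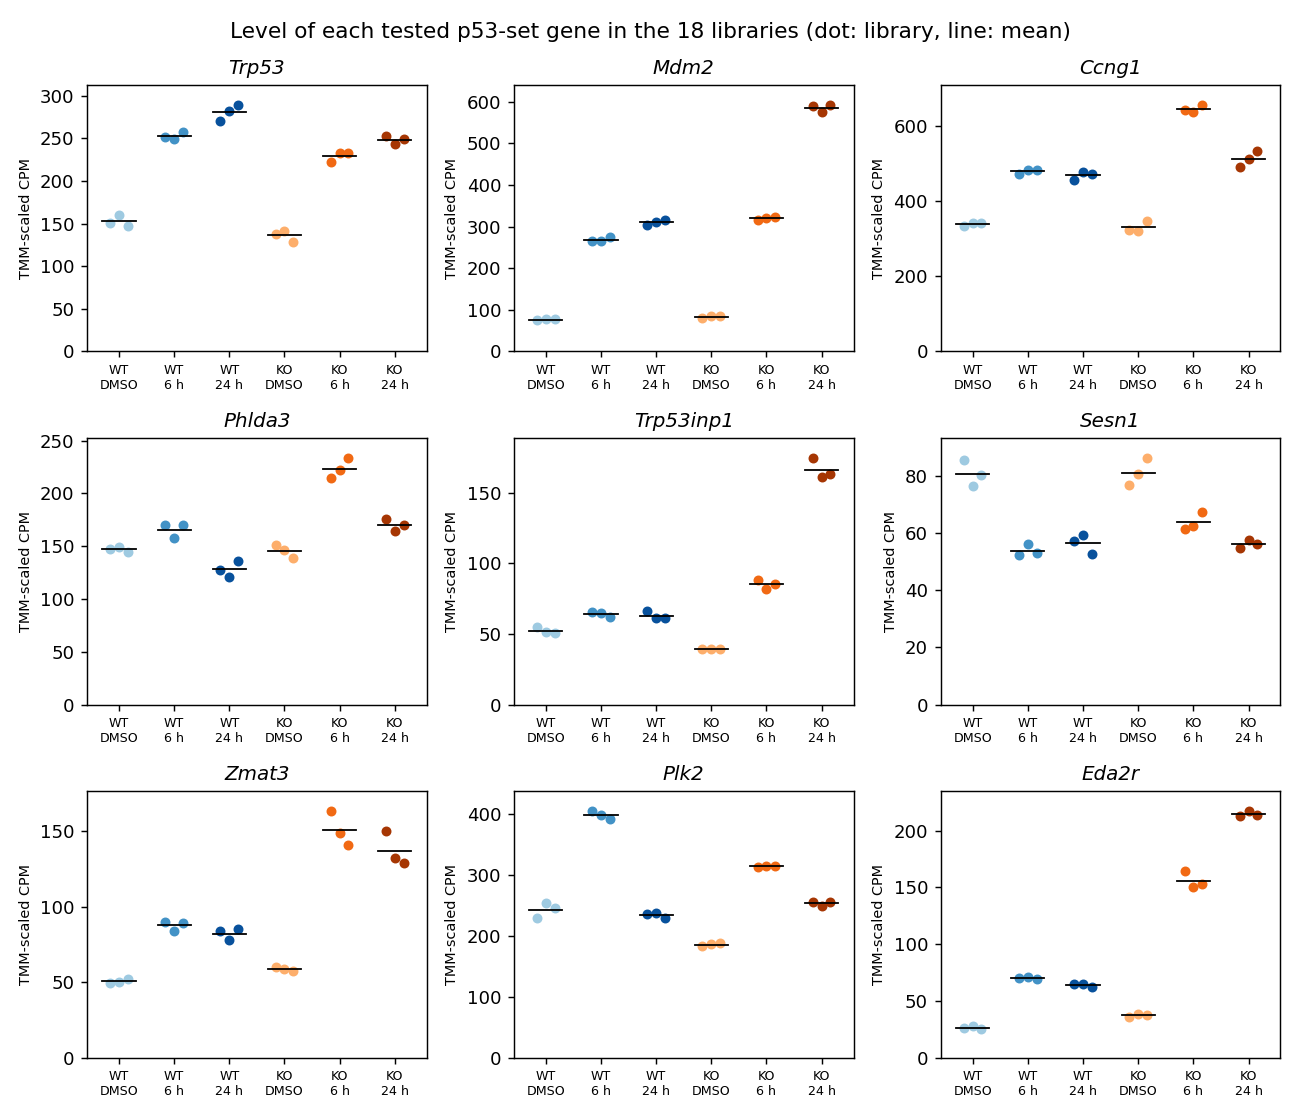
Each panel plots the TMM-scaled CPM of 1 tested member (vertical axis, from 0) in the WT and Nrf1-KO (KO) libraries of DMSO, 6 h and 24 h of CFZ, with a dot per library and a line at the mean of 3. Trp53 lies at 128.1 to 160.1 CPM in the 6 DMSO libraries and at 222.6 or more under CFZ, Mdm2 reaches 592.9 CPM in Nrf1-KO cells at 24 h, and Sesn1 is lower under CFZ than in DMSO in both lines.

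Among the 9 tested members, 8 were higher and 1 was lower in WT cells at 6 h of CFZ, where 35.6% of all genes tested were called higher and 36.2% lower. At 24 h, 6 were higher and 2 lower, beside 43.2% and 40.5% of all genes. In the Nrf1-KO line 8 were higher and 1 was lower at both times, where 34.5% and 44.4% of all genes were called higher and 35% and 41.1% lower. By the 2-fold rule 2 members were higher in WT cells at each time and 4 in Nrf1-KO cells at each time, against 3.98% of all genes in WT cells at 6 h, 10.5% at 24 h, and 3.3% and 11.5% in Nrf1-KO cells. No member was lower by 2-fold, while 5.65% and 14.5% of all genes in WT cells and 4.26% and 15.2% in Nrf1-KO cells were. The median log2 fold change of the 9 members was 0.71 at 6 h and 0.47 at 24 h in WT cells, beside -0.02 and 0.02 over all genes, and 0.97 and 0.87 in Nrf1-KO cells, beside -0.01 and 0.03. Scaling by library size alone moved the median of all genes to -0.15 in WT cells and -0.12 in Nrf1-KO cells at 6 h, and that of the members to 0.58 and 0.85.

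Mdm2 and Eda2r had the highest increases in WT cells. Mdm2, on chromosome 10 from 117688875 to 117710758, stood at 76.02, 77 and 77.17 CPM in WT DMSO, at 265.3, 264.5 and 274.7 at 6 h and at 304.6, 311.4 and 315 at 24 h. Nrf1-KO cells held 79.32, 84.91 and 84.52 CPM in DMSO, then 315.7, 320.8 and 322.9 at 6 h and 589, 575.6 and 592.9 at 24 h. No 2 groups overlapped, and the Nrf1-KO libraries at 24 h were far above all others. In WT cells Mdm2 rose 3.5-fold at 6 h (log2 1.81, SE 0.0352, adjusted p = 1.51e-28) and 4.05-fold at 24 h (log2 2.02, SE 0.035, adjusted p = 2.16e-30), at percentiles 98.8 and 97.7 of all genes tested. In Nrf1-KO cells it rose 3.85-fold (log2 1.95, adjusted p = 1.5e-29) and 7.05-fold (log2 2.82, adjusted p = 1.4e-34). From 6 h to 24 h its log2 change was 0.21 in WT cells (adjusted p = 6.55e-07) and 0.87 in Nrf1-KO cells (adjusted p = 9.11e-22).

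Eda2r, a receptor of the TNF family that binds ectodysplasin A2, lies on chromosome X from 97333840 to 97377216. It stood at 26.02, 27.93 and 25.19 CPM in WT DMSO, at 70.53, 71.43 and 69.66 at 6 h and at 65.26, 64.7 and 62.1 at 24 h. The Nrf1-KO libraries stood at 35.98, 38.51 and 37.75 CPM in DMSO, at 164.7, 150.8 and 152.6 at 6 h and at 212.8, 217.3 and 213.7 at 24 h. The 6 groups did not overlap. Eda2r rose 2.67-fold at 6 h (log2 1.42, SE 0.0494, adjusted p = 7.42e-22) and 2.42-fold at 24 h (log2 1.28, SE 0.0499, adjusted p = 4.51e-21) in WT cells, and 4.17-fold (log2 2.06, adjusted p = 6.53e-28) and 5.73-fold (log2 2.52, adjusted p = 1.86e-31) in Nrf1-KO cells. It was already higher in the Nrf1-KO line in DMSO (log2 difference 0.51, adjusted p = 1.06e-09).

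Ccng1 and Plk2, grouped here with Mdm2 in the growth arrest and p53 feedback arm, moved less than Mdm2. Ccng1, which encodes cyclin G1 and recruits a phosphatase to Mdm2, lies on chromosome 11 from 40748552 to 40755311. It stood at 335.4, 341.2 and 343.7 CPM in WT DMSO, at 474, 483.6 and 483.7 at 6 h and at 458, 479 and 474.1 at 24 h. Its levels in Nrf1-KO cells were 323.9, 321.7 and 346.6 CPM in DMSO, then 642.8, 639 and 658 at 6 h and 491.7, 511.9 and 534.3 at 24 h. The DMSO libraries of both lines overlapped and all CFZ libraries lay above them, with the Nrf1-KO libraries at 6 h the highest. Ccng1 rose by a log2 fold change of 0.50 (SE 0.0353, adjusted p = 5.94e-14) and 0.47 (adjusted p = 1.1e-13) in WT cells, and by 0.97 (adjusted p = 3.89e-21) and 0.63 (adjusted p = 4.23e-17) in Nrf1-KO cells.

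Plk2, a polo-like kinase, lies on chromosome 13 from 110395046 to 110400844 and rose at 6 h in both lines. It stood at 229.5, 255.1 and 246.5 CPM in WT DMSO, at 405.6, 398.5 and 392.7 at 6 h and at 237.1, 238.3 and 229.5 at 24 h, back within the range of DMSO. Nrf1-KO libraries held 183.4, 186.8 and 188.2 CPM in DMSO, then 313.9, 315.5 and 314.6 at 6 h and 255.9, 249.1 and 256.3 at 24 h, above DMSO. The log2 fold change in WT cells was 0.71 at 6 h (SE 0.034, adjusted p = 3.07e-18) and -0.05 at 24 h (SE 0.0348, adjusted p = 0.162), whereas Nrf1-KO cells had 0.76 at the earlier time (adjusted p = 1.87e-18) and 0.45 at the later one (adjusted p = 2.4e-13). The value of WT cells at 24 h was called lower under 5 of its 14 alternatives, the adjusted p running from 9.86e-06 to 0.681.

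Members tied to death and to repression of survival signals came next. Trp53inp1, a stress protein that takes part in p53-driven death and in autophagy, lies on chromosome 4 from 11156431 to 11174379. It stood at 55.03, 51.08 and 50.52 CPM in WT DMSO, at 65.6, 64.81 and 61.91 at 6 h and at 66.48, 61.04 and 61.17 at 24 h. Levels in the Nrf1-KO line were 39.6, 39.27 and 39.33 CPM in DMSO, then 87.9, 82.09 and 85.49 at 6 h and 174.7, 161.2 and 163.4 at 24 h. The Nrf1-KO libraries were thus the lowest of all in DMSO and the highest of all under CFZ. The rise in WT cells was 1.23-fold at 6 h (log2 0.29, SE 0.0478, adjusted p = 2.45e-06) and 1.2-fold at 24 h (log2 0.26, adjusted p = 1.17e-05), and in Nrf1-KO cells 2.16-fold (log2 1.11, adjusted p = 3.65e-19) and 4.22-fold (log2 2.08, SE 0.0434, adjusted p = 2.06e-28).

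Phlda3, an inhibitor of Akt, lies on chromosome 1 from 135766119 to 135769136. It stood at 146.9, 149.6 and 144.6 CPM in WT DMSO, at 169.7, 157.4 and 170.1 at 6 h and at 127.5, 120.7 and 135.7 at 24 h. The values of Nrf1-KO cells were 150.7, 146.2 and 139.1 CPM in DMSO, then 214.7, 222 and 233.6 at 6 h and 175.4, 164.2 and 169.8 at 24 h. At 24 h the WT libraries were below and the Nrf1-KO libraries above DMSO of their own line. The log2 fold change was 0.17 at 6 h (SE 0.0426, adjusted p = 0.000618) and -0.20 at 24 h (SE 0.0435, adjusted p = 0.000103) in WT cells, and 0.62 (adjusted p = 2.8e-14) and 0.23 (adjusted p = 1.06e-05) in Nrf1-KO cells. The rise in WT cells at 6 h did not pass the threshold with upper-quartile scaling (0.06, adjusted p = 0.172) or library size alone (0.04, adjusted p = 0.395). With library size alone the rise in Nrf1-KO cells at 24 h did not pass it either (0.04, adjusted p = 0.326).

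Zmat3, a zinc-finger RNA-binding protein, lies on chromosome 3 from 32334792 to 32366014. It stood at 49.55, 50.19 and 52.04 CPM in WT DMSO, at 90.09, 83.67 and 89.32 at 6 h and at 83.97, 77.71 and 85.1 at 24 h. The Nrf1-KO line had 60.22, 59.07 and 57.18 CPM in DMSO, then 163.5, 149.1 and 141 at 6 h and 150, 132.1 and 129.1 at 24 h. Within each line the 6 h and 24 h libraries overlapped, and the Nrf1-KO libraries were above the WT ones in every treatment. Zmat3 rose 1.74-fold (log2 0.80, SE 0.0574, adjusted p = 9.79e-14) and 1.62-fold (log2 0.70, adjusted p = 1e-12) in WT cells, and 2.59-fold (log2 1.37, adjusted p = 1.85e-20) and 2.33-fold (log2 1.22, adjusted p = 3.84e-20) in Nrf1-KO cells.

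Sesn1 fell at both times in both lines. It encodes sestrin 1, a stress protein that restrains mTORC1 and supports antioxidant defence, and lies on chromosome 10 from 41809935 to 41908424. It stood at 85.56, 76.47 and 80.48 CPM in WT DMSO, at 52.55, 56.07 and 53.17 at 6 h and at 57.44, 59.54 and 52.74 at 24 h. Levels of Sesn1 in Nrf1-KO cells were 76.76, 80.58 and 86.41 CPM in DMSO, then 61.41, 62.55 and 67.39 at 6 h and 54.72, 57.64 and 56.07 at 24 h. The DMSO libraries of the 2 lines overlapped, and all CFZ libraries were below them. The log2 fold change was -0.59 at 6 h (SE 0.0526, adjusted p = 1.78e-11) and -0.52 at 24 h (adjusted p = 1.01e-10) in WT cells, and -0.36 (adjusted p = 3.09e-07) and -0.54 (adjusted p = 1.97e-11) in Nrf1-KO cells.

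**Figure D2:**
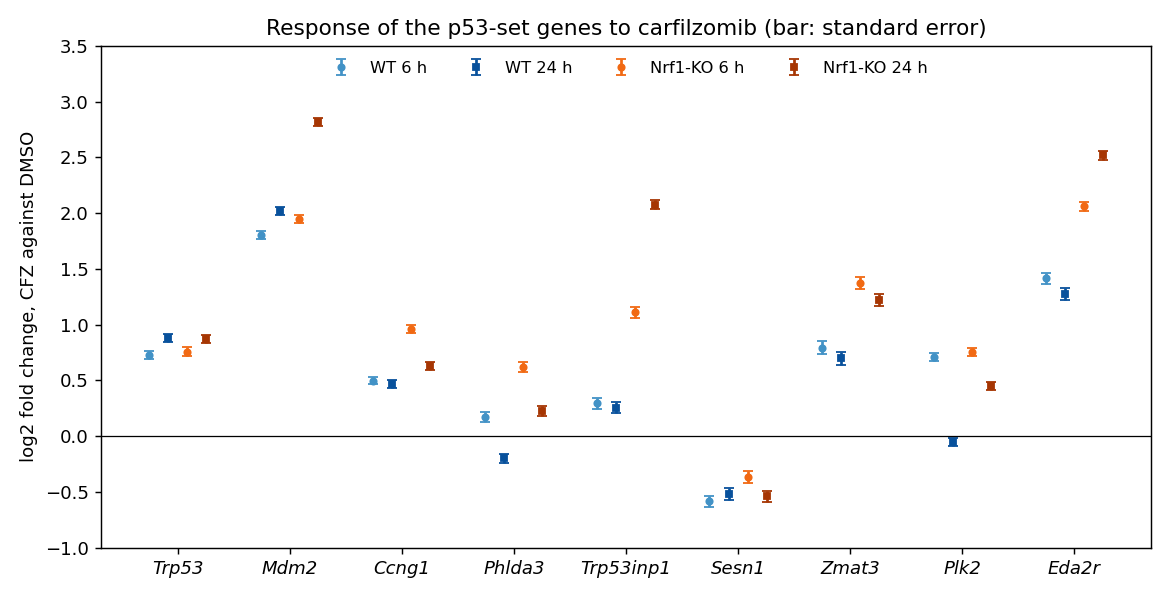
The log2 fold change of each tested member under CFZ against DMSO of the same line (vertical axis) is plotted for WT (blues) and Nrf1-KO (oranges) cells at 6 h (circles) and 24 h (squares), with bars of 1 standard error. Mdm2 lies between 1.81 and 2.82 in all 4 comparisons, Sesn1 lies between -0.59 and -0.36, and Plk2 and Phlda3 are at or below 0 in WT cells at 24 h only.

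Per length of exon in the M21 annotation, the level in WT DMSO was highest for Ccng1 (96.8 CPM per kb) and Phlda3 (94.3) and, among the 9 tested members, lowest for Zmat3 (4.42) and Eda2r (4.48), with Trp53 at 37.7 and Mdm2 at 15.1. In Nrf1-KO cells at 24 h the level of Mdm2 was 115 CPM per kb, above that of Trp53 at 61.4, whereas in DMSO of both lines it was below it. The authors' annotation need not have the same exons.

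Whether the response differed between the lines was tested by the interaction of genotype and CFZ. Of the 9 tested members, 7 at 6 h and 7 at 24 h responded more positively in the Nrf1-KO line and 0 more negatively, where 19.8% and 29.7% of all genes tested were called more positive and 18.4% and 30% more negative. The 2 times share their DMSO libraries. The median interaction of the 9 members was 0.45 at 6 h and 0.50 at 24 h, beside 0.02 and 0.01 over all genes. A difference of at least 2-fold was found for 2 members at 24 h, Trp53inp1 and Eda2r, against 4.07% of all genes more positive, and for none at 6 h (1.21%). The interaction of Trp53inp1 was 0.82 at 6 h (SE 0.068, adjusted p = 2.1e-11) and 1.82 at 24 h (SE 0.0649, adjusted p = 8.86e-21), at percentiles 96.5 and 98.6 of all genes. That of Eda2r was 0.64 (SE 0.0667, adjusted p = 2.64e-09) and 1.24 (SE 0.066, adjusted p = 1.5e-16). That of Mdm2 was 0.14 at 6 h (SE 0.0494, adjusted p = 0.0252) and 0.80 at 24 h (SE 0.0485, adjusted p = 3.69e-15).

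Zmat3 (0.58 and 0.52) and Phlda3 (0.45 and 0.43) had values of similar size at both times, with adjusted p-values of 4.65e-07 and 9.44e-07 and of 3.45e-07 and 3.61e-07. For Ccng1 the interaction was 0.47 at 6 h and 0.16 at 24 h (SE 0.0497 and 0.0496, adjusted p = 4.56e-09 and 0.00568), and the latter did not pass the threshold with library size alone (0.08, adjusted p = 0.146). Plk2 was not called at 6 h (0.05, SE 0.0488, adjusted p = 0.5) and was called at 24 h (0.50, SE 0.0492, adjusted p = 2.99e-10). Sesn1 was called at 6 h (0.22, SE 0.0746, adjusted p = 0.0186) and not at 24 h (-0.02, SE 0.0727, adjusted p = 0.832). The calls of Mdm2 and Sesn1 at 6 h depended on single libraries. Without 1 library, the adjusted p of Mdm2 rose above 0.05 in 5 of 12 cases, with values from 0.10 to 0.16, and that of Sesn1 in 4 of 12, with values from 0.15 to 0.28. For Mdm2 these libraries were WT DMSO replicate 1, WT 6 h replicates 1, 2 and 3 and Nrf1-KO DMSO replicate 1, and for Sesn1 they were WT DMSO replicate 1, WT 6 h replicates 1 and 3 and Nrf1-KO 6 h replicate 3. The call of Mdm2 was also lost without the expression filter (0.12, adjusted p = 0.144).

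**Figure D3:**
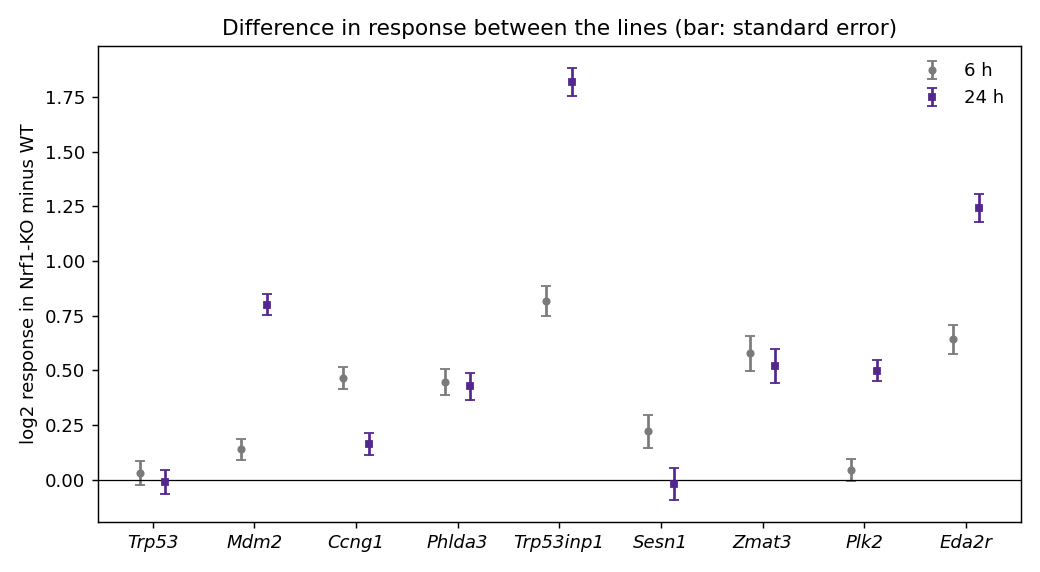
The difference in log2 response between the Nrf1-KO and WT lines (vertical axis) is plotted for each tested member at 6 h (grey circles) and 24 h (purple squares), with bars of 1 standard error. Trp53 lies at 0.03 and -0.01, and Trp53inp1 and Eda2r are the highest at both times, at 1.82 and 1.24 at 24 h.

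In DMSO, without inhibitor, 3 members were higher in the Nrf1-KO line, 3 were lower and 3 were not called, where 25.7% of all genes were called higher and 29.1% lower. The higher members were Eda2r (log2 difference 0.51), Zmat3 (0.22, adjusted p = 0.00225) and Mdm2 (0.11, adjusted p = 0.0103), and the lower ones were Trp53inp1 (-0.41, adjusted p = 2.07e-08), Plk2 (-0.39, adjusted p = 5.3e-11) and Trp53 (-0.17). The call of Mdm2 was lost without Nrf1-KO DMSO replicate 3 (0.10, adjusted p = 0.0548). Of the genes called in DMSO, 46.9% were higher, and 57.7% with library size alone as the scaling. Under CFZ for 6 h, 7 members were higher in the Nrf1-KO line and 2 lower, where 30.5% of all genes were called higher and 30.8% lower. The higher members were Eda2r (1.15), Zmat3 (0.79), Ccng1 (0.43), Phlda3 (0.43), Trp53inp1 (0.41), Mdm2 (0.25) and Sesn1 (0.23), and the lower ones were Plk2 (-0.34, adjusted p = 3.64e-10) and Trp53 (-0.14). At 24 h, 7 members were higher and 1 lower, beside 35.6% and 36.4% of all genes. The higher ones were Mdm2 (0.92), Ccng1 (0.12), Phlda3 (0.41), Trp53inp1 (1.41), Zmat3 (0.74), Plk2 (0.11) and Eda2r (1.75). Trp53 was lower (-0.18) and Sesn1 was not called (-0.01, adjusted p = 0.906). By 2-fold, only Eda2r (1.15) was higher at 6 h, against 4.31% of all genes, and Trp53inp1 and Eda2r were at 24 h, against 6.71%.

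Between 6 h and 24 h of CFZ the members moved unevenly. As a time for DMSO is not given, time under CFZ and time in culture cannot be told apart here. The median log2 change of the 9 tested members was -0.035 in WT cells and -0.151 in Nrf1-KO cells, beside 0.011 and 0.002 over all genes. From 6 h to 24 h in WT cells Mdm2 (0.21) and Trp53 (0.15) rose, Plk2 (-0.76), Phlda3 (-0.37) and Eda2r (-0.14) fell, and 4 were not called, where 36.9% of all genes were called higher and 35.4% lower. In Nrf1-KO cells Trp53inp1 (0.97), Mdm2 (0.87), Eda2r (0.46) and Trp53 (0.11) rose and the 5 other tested members fell by -0.39 to -0.15, where 38.7% were called higher and 38.3% lower. The rise of Trp53 was lost without Nrf1-KO 6 h replicate 1 (0.09, adjusted p = 0.0609), with upper-quartile scaling (0.08, adjusted p = 0.0612) and with library size alone (0.04, adjusted p = 0.306). The fall of Zmat3 was lost without the same library (-0.09, adjusted p = 0.123).

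The rest of the pathway was read from lists of known genes. The first held 8 genes listed here as p53 targets and also as targets of ATF4 or CHOP, transcription factors of the integrated stress response. Whether p53 acts on each of these genes, Ppp1r15a included, was not tested. In WT cells 7 of the 8 were higher at 6 h and 6 at 24 h, and in Nrf1-KO cells 8 and 7. Over all genes 35.6% and 43.2% were called higher in WT cells and 34.5% and 44.4% in Nrf1-KO cells. The median log2 fold change was 2.07 and 1.28 in WT cells and 2.48 and 2.37 in Nrf1-KO cells. Ppp1r15a, the phosphatase subunit GADD34, had the largest value at 24 h in both lines (3.11 and 4.18), and Bbc3, which encodes the BH3-only protein PUMA, the smallest (-1.17, adjusted p = 1.3e-14, in WT cells and -0.12, adjusted p = 0.169, in Nrf1-KO cells). Gdf15, a secreted stress cytokine, was not called in WT cells at 24 h (0.25, adjusted p = 0.83) and had at most 19 counts in a library. Cdkn1a, which encodes the cell-cycle inhibitor p21 and is named here after its values were seen, went from 125.4 ± 1.27 CPM in WT DMSO to 207.7 ± 6.92 at 6 h and 158.4 ± 1.2 at 24 h (SD, n = 3), and in the Nrf1-KO line from 90.17 ± 0.09 to 260.9 ± 0.813 and 263.4 ± 6.41. Its log2 fold change was 0.73 and 0.34 in WT cells and 1.53 and 1.55 in Nrf1-KO cells, with an interaction of 1.21 at 24 h (adjusted p = 5.76e-20).

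The second list held 17 further p53 targets for which no such double control was assumed, and its medians were smaller. What sets the 2 lists apart was not tested, and both were drawn up with earlier results of these data known. In WT cells 7 were higher and 5 lower at 6 h (median 0.14), and 9 higher and 5 lower at 24 h (median 0.20). In Nrf1-KO cells 12 were higher and 1 lower at 6 h (median 0.54), and 10 higher and 3 lower at 24 h (median 0.29). Over all genes the shares called higher and lower were 35.6% and 36.2% in WT cells at 6 h and 43.2% and 40.5% at 24 h, near those of the list, and in Nrf1-KO cells 34.5% and 35% at 6 h and 44.4% and 41.1% at 24 h. The genes lower in WT cells at 6 h were Ddb2 (-0.49), Dcxr (-0.30), Rrm2b (-0.24), Ppm1d (-0.19) and Rps27l (-0.14, adjusted p = 0.0463), and in Nrf1-KO cells Ddb2 (-0.33, adjusted p = 0.0194). At 24 h the largest value in WT cells was that of Tigar, a regulator of glycolysis listed under its older symbol (1.33, adjusted p = 3.36e-11), and the smallest that of Ei24, an ER membrane protein (-0.77, adjusted p = 7.9e-15). In Nrf1-KO cells the largest was that of Btg2, an antiproliferative gene (1.88, adjusted p = 1.42e-21), and the smallest that of Rps27l, a ribosomal protein paralog (-0.43, adjusted p = 1.12e-07). The other genes lower in WT cells at 24 h were Apaf1 (-0.24), Ppm1d (-0.33), Rps27l (-0.45) and Rrm2b (-0.35), and in Nrf1-KO cells Ei24 (-0.11) and Dcxr (-0.28). Fas, the death receptor, was singled out after its values were seen. It went from 8.97 ± 0.363 CPM in WT DMSO to 71.96 ± 6.45 at 6 h and 14.77 ± 0.236 at 24 h, and in the Nrf1-KO line from 6.04 ± 0.468 to 56.77 ± 6.91 and 5.22 ± 0.098.

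Of 14 regulators of p53, 13 were tested, Cdkn2a being the one without counts. At 24 h 7 were higher and 5 lower in WT cells (median 0.11), and 8 were higher and 3 lower in Nrf1-KO cells (median 0.21), where 43.2% and 40.5% of all genes were called higher and lower in WT cells and 44.4% and 41.1% in Nrf1-KO cells. Trp53bp1, a DNA break and p53-binding protein, had the largest value in WT cells (1.03) and Crebbp, a p53 acetyltransferase, in Nrf1-KO cells (0.91). The Nrf1-KO libraries of Crebbp at 24 h spread widely, at 164.5, 128.7 and 107.4 CPM in replicates 1, 2 and 3. All were above its Nrf1-KO DMSO libraries (67.9 to 74.07), which fell in the same order. The smallest values were those of the checkpoint kinase genes Atr in WT cells (-0.96) and Chek1 in Nrf1-KO cells (-1.07). Atm (-0.15) and Atr (-0.95) were the other regulators lower in Nrf1-KO cells, and Chek1 (-0.94), Atm (-0.20), Hipk2 (-0.21) and Rchy1 (-0.22) were the others lower in WT cells. Mdm4, the partner of Mdm2 and named after its values were seen, rose in both lines (0.74 and 0.47 in WT cells, 1.02 and 0.78 in Nrf1-KO cells). Of the p53 family, Trp73 had at most 1 count in a library, and Trp63 fell from between 44 and 66 counts in the WT DMSO libraries to 1 or 2 at 24 h, and from between 63 and 95 to 2 or 3 in the Nrf1-KO line.

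The last list held 10 cell-cycle genes that are known to fall when p53 acts through p21 and the DREAM repressor complex. In WT cells all 10 were lower at both times, with medians of -0.66 and -1.93, where 36.2% and 40.5% of all genes were called lower. In Nrf1-KO cells 9 were lower at 6 h (median -0.63; Cdc25c, -0.10, adjusted p = 0.205, was not called) and 10 at 24 h (median -3.57), where 35% and 41.1% were called lower. The smallest fall at 24 h in WT cells was that of Cdc25c (-1.04) and the largest that of Ccnb2 (-2.67), and in Nrf1-KO cells Cdc25c (-2.27) and Ccna2 (-5.00). At 6 h the interaction was more positive for 3, more negative for 2 and not called for 5, with a median of 0.07. Over all genes 19.8% were called more positive at that time and 18.4% more negative. At 24 h the interaction was negative for all 10, with a median of -1.87, where 30% of all genes were called more negative. These genes also fall when cells leave the cycle by other routes, and what share of the fall is tied to p53 was not tested.

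**Figure D4:**
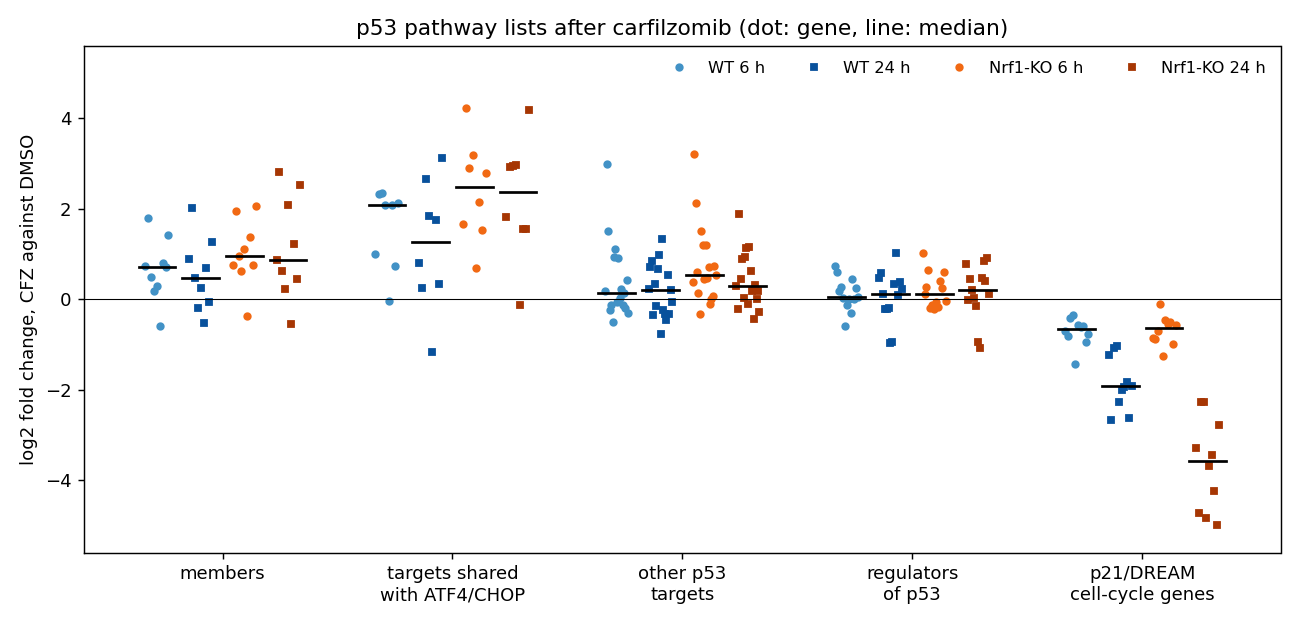
The log2 fold change under CFZ (vertical axis) is plotted for the genes of 5 lists, the members included, in WT (blues) and Nrf1-KO (oranges) cells at 6 h (circles) and 24 h (squares), with a dot per gene and a line at the median. The targets shared with ATF4 or CHOP have medians from 1.28 to 2.48, the other p53 targets from 0.14 to 0.54, and the cell-cycle genes reach a median of -3.57 in Nrf1-KO cells at 24 h.

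Over the 18 libraries and the 10259 genes whose counts averaged 50 or more, the profiles most like that of Trp53 (Pearson's r of log2 CPM, a description across 6 clusters of libraries) were those of Hmox1 (0.991), Tmem66 (0.991), Prpf39 (0.989), Hspa4 (0.988) and Dis3 (0.988). Those most like Mdm2 were Gtpbp4 (0.994), Ptgs2 (0.993), Tgif1 (0.992), Canx (0.991) and Ppp1r15a (0.990). None of these 10 profiles is that of another member, though the members are few beside the genes compared. Pearson's r does not reflect the size of a change. In WT cells at 24 h Hmox1 rose by a log2 fold change of 4.43 and Trp53 by 0.88.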

How the data were processed

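RNA from 18 cultures was sequenced by the authors as stranded mRNA libraries (paired 125-base reads) and processed with RNA Express, which runs STAR and DESeq2. The authors deposited 1 table of raw counts, whole reads per gene symbol and library, without normalization. The genome build, annotation, software versions and use of strand are not given in the sources used here. Columns were matched to samples by the names in the sample descriptions.

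Genes were filtered on expression (filterByExpr at a minimum count of 10 and total of 15) in edgeR 4.0.16 (R 4.3.3). TMM scaling and 1 quasi-likelihood fit of all 6 groups followed, with Benjamini-Hochberg adjustment over 11762 genes in each of 11 comparisons. With a common biological coefficient of variation of 3.13%, changes of a few percent can be called, and p-values measure the spread between these cultures. Within groups the chi-square per degree of freedom was at least 1.438, over genes of 20 or more counts, so no libraries were merged. On simulated counts for 24 h against DMSO in the Nrf1-KO line, edgeR recovered 200 of 200 changed genes among 11557, with 13 unchanged genes called. For the interaction at 24 h it recovered 194 of 200, again with 13 unchanged genes called. The simulation changed few genes and none with low counts, whereas most genes were called in the data. It therefore does not test the scaling or the share of genes called in the data.

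The members, lists and tests were chosen with earlier results of these data known. All 10 members are named. Of each pathway list the genes with the largest and smallest value at 24 h in each line are named, and others where a count of 5 or fewer needed them. Others named were chosen after their values were seen. Positions and exons come from GENCODE M21 (GRCm38) by symbol, promoter windows from RefSeq (GRCm38.p6). Alternatives were DESeq2 1.42.0, RLE, upper-quartile and library-size scaling, other filters, fits of the compared groups only, a replicate block, each library left out and a 2-fold rule.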

Additional observations from a re-analysis of the deposited data

Results flagged for a closer look

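The members whose response to CFZ differed between the Nrf1-KO and WT lines by the interaction test (edgeR's quasi-likelihood test, adjusted p-value under 0.05 over 11762 genes) were flagged, with 3 libraries in each group. At 6 h the differences in log2 response, Nrf1-KO minus WT, were 0.14 for Mdm2, 0.47 for Ccng1, 0.45 for Phlda3, 0.82 for Trp53inp1, 0.22 for Sesn1, 0.58 for Zmat3 and 0.64 for Eda2r. At 24 h they were 0.80 for Mdm2, 0.16 for Ccng1, 0.43 for Phlda3, 1.82 for Trp53inp1, 0.52 for Zmat3, 0.50 for Plk2 and 1.24 for Eda2r. All 14 are positive. Of all genes tested, 19.8% at 6 h and 29.7% at 24 h were called more positive, and 18.4% and 30% more negative. The 2 times share their DMSO libraries, and most of the flagged genes appear at both. The calls of Mdm2 and Sesn1 at 6 h were lost in 5 of 12 and 4 of 12 cases when 1 library was left out. The line that carries the edit and the line's own history cannot be told apart in this design.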

How the results depend on the processing

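Of the members' values, 768 kept their direction and side of the threshold under settings other than leaving out a library, 8 lost the call, 7 gained it and 9 changed sign. Leaving out 1 library gave 671, 12, 2 and 17. Each sign change was of a value near 0 that was not called, and its cause was not tested. Sesn1 between the lines at 24 h was 0.005 with DESeq2, 0.006 with RLE scaling, 0.034 with upper-quartile scaling, 0.010 with no expression filter and 0.006 with the compared groups only. With upper-quartile scaling the interaction at 24 h was 0.018 for Trp53 and 0.008 for Sesn1. With library size alone the difference between the lines in DMSO was 0.008 for Ccng1 and 0.027 for Phlda3. Without 1 library, the interaction of Trp53 lay between -0.016 and 0.062 at 6 h and between -0.057 and 0.021 at 24 h, that of Sesn1 at 24 h between -0.074 and 0.032, Sesn1 between the lines between -0.041 and 0.076 in DMSO and between -0.062 and 0.036 at 24 h, and Phlda3 in DMSO between -0.048 and 0.014. The count of members lower in the Nrf1-KO line at 6 h was 1 with library size alone, in place of 2. With at least 2-fold the counts of members higher were 2 and 2 in WT cells at 6 h and 24 h, 4 and 4 in Nrf1-KO cells, 0, 1 and 2 between the lines in DMSO, at 6 h and at 24 h, 0 and 2 in the interactions and 0 between the times in both lines, and the counts of members lower were all 0. Leaving out 1 library moved no count of members called at the adjusted p-value alone by more than 1.5 times.

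Among genes called, the share that was higher moved by over 10 points with the scaling. In WT cells at 6 h it was 49.6%, while library size alone gave 35.4% and upper-quartile scaling 37.9%. With library size alone it was 36.4% in place of 49.7% in Nrf1-KO cells at 6 h and 41.6% in place of 52% at 24 h. Between the lines it moved the other way, to 57.7% in place of 46.9% in DMSO and to 60.8% in place of 49.8% at 6 h. Taken over all genes tested, same-numbered libraries did not deviate together (r from -0.0494 to 0.0972 over 45 pairs), so the numbers were not taken as pairs. Single genes can differ from this. That r also covers genes of low counts. In the Nrf1-KO line Zmat3 fell from replicate 1 to replicate 3 in every treatment. Col1a1, Col1a2, Atm, Ep300 and Crebbp, picked after their values were seen, had the same order. Col1a1 stood at 6971, 5809 and 4721 CPM in Nrf1-KO DMSO and at 945.9, 798.5 and 676.2 at 24 h. Other genes, Mdm2 and Eda2r among them, did not have this order. Whether such genes share a replicate effect was not tested. In a fit that blocked on replicate number, the interaction was more positive for 7 members at 6 h and 7 at 24 h, and no count of members changed.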

Other observations

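Other genes that carry p53 in their name, chosen by symbol after the members had been seen, were also read. Trp53inp2, the paralog of Trp53inp1 with a role in autophagy, had log2 fold changes of -0.20 and -0.22 in WT cells after 6 h and 24 h (edgeR's quasi-likelihood test, adjusted p = 0.00106 and 0.000314). It rose in Nrf1-KO cells by 0.28 and 1.19 (adjusted p = 3.54e-05 and 3.69e-21). The interaction reached 0.48 at the earlier time (SE 0.0747, adjusted p = 5.16e-06) and 1.41 at the later one (SE 0.0693, adjusted p = 2.18e-17, percentile 97.5 of all genes). Its level was 50.12 ± 3.33 CPM in WT DMSO (SD, n = 3) and 43.21 ± 1 after 24 h of CFZ, while Nrf1-KO cells went from 37.96 ± 0.858 to 86.87 ± 2.44. Trp53bp2, which encodes the apoptosis-stimulating p53 partner ASPP2, rose by 0.58 in WT cells and 1.36 in Nrf1-KO cells at 24 h, with an interaction of 0.77 (adjusted p = 5.75e-09).

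Wrap53, which starts head to head with Trp53 on the opposite strand and encodes a telomerase and Cajal body protein, rose from 11.97 ± 0.604 CPM in WT DMSO to 22.81 ± 0.956 at 24 h (log2 0.93, adjusted p = 1.09e-13) and from 13.6 ± 0.238 to 21.77 ± 1.13 in the Nrf1-KO line (0.67, adjusted p = 5.43e-11). Trp53i13 fell at 24 h in WT cells (-0.86, adjusted p = 4.8e-09) and in Nrf1-KO cells (-0.30, adjusted p = 0.00388). Trp53rk was not called at 24 h in either line (0.33 and 0.30, adjusted p = 0.0674 and 0.09). Trp53i11 and Trp53tg5 had no count in any library.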
